A study of Mus musculus with 18 samples.

Results

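The genes described are the Wnt ligands, their receptors and the secreted proteins that modulate them, in T23 cells, which are labelled as mouse prostate tumour cells. Members were chosen by symbol: the numbered Wnt, Frizzled (Fzd), R-spondin (Rspo), Sfrp and Dkk genes, Dkkl1 and Wif1, the co-receptors and kinase-family receptors Lrp5, Lrp6, Ror1, Ror2 and Ryk, and the secretion factors Porcn and Wls. The rule used no measured value, though the members were chosen with earlier results of these data known. It found 50 of the 55487 genes listed in each file. They are 19 ligands, 2 secretion factors, 10 Frizzled receptors, 5 co-receptors, 4 R-spondins and 10 secreted inhibitors.

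Wnts are lipid-modified secreted ligands. Porcn attaches the lipid, Wls carries the ligand to the cell surface, and Frizzled receptors bind it there together with Lrp5 or Lrp6 to stabilise beta-catenin, or with Ror1, Ror2 or Ryk in signalling that does not need beta-catenin. R-spondins bind Lgr4, Lgr5 and Lgr6 and keep the ubiquitin ligases Znrf3 and Rnf43 from removing Frizzled, whereas Sfrp and Dkk proteins mostly act outside the cell against the ligand or its co-receptor. In the prostate this pathway is known for its part in budding of the developing gland and for its alteration in advanced tumours.

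Polyadenylated RNA was sequenced in 18 libraries, 3 for each of 6 groups, and reads were counted per gene. T23 cells had been co-cultured with fibroblasts and given both enzalutamide (ENZA), a drug used against prostate cancer, and isoliquiritigenin (ISO), a chalcone found in liquorice; co-cultured with fibroblasts and given enzalutamide; given enzalutamide without fibroblasts; co-cultured with Sparc-deficient fibroblasts; co-cultured with wild-type fibroblasts; or left alone. These groups are called the isoliquiritigenin co-culture, the enzalutamide co-culture, enzalutamide alone, the Sparc-deficient co-culture, the wild-type co-culture and T23 cells alone. The labels give no dose, no duration, no vehicle and no account of how T23 cells were kept apart from fibroblasts. They describe the fibroblasts of both enzalutamide co-cultures as human, while the titles use 1 name, FIBROB6, for these and for the wild-type fibroblasts, so a change of fibroblasts and the drug cannot be told apart between those groups.

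Library totals were 16.1 to 26.7 M counts. Replicate 2 of enzalutamide alone had 26.5% of its counts on ribosomal RNA genes, against 0.0392% to 0.139% in the others. For the comparisons of enzalutamide alone with T23 cells alone and with the enzalutamide co-culture, member calls are also given without that library. The index that ends each title restarts within the enzalutamide co-culture, which leaves replicate 1 in the first numbering and replicates 2 and 3, with all 3 isoliquiritigenin libraries, in the second. Markers went against an epithelial identity in every group: Epcam, Cdh1, Krt8 and Krt18 stayed under 1 CPM (counts per M of the scaled library size), while Pdgfra, a mesenchymal marker, stood at 1031 to 1410 CPM. The summed CPM of 7 fibroblast or mesenchymal markers (6 of them at 1 CPM or more in every library, Lum at or under 0.148 CPM) was 10850 to 11280 in the isoliquiritigenin co-culture, 13550 to 14240 in the enzalutamide co-culture, 13650 to 15060 with enzalutamide alone, 17480 to 18450 in the Sparc-deficient co-culture, 15770 to 16740 in the wild-type co-culture and 16240 to 16660 in T23 cells alone. The largest part of these sums came from Col1a1 (6837 to 12220 CPM over all libraries), followed by Vim (1891 to 4467 CPM). Mitochondrial transcripts took 1.55% to 4.06% of counts in the 9 enzalutamide-treated libraries and 0.824% to 1.68% in the 9 untreated ones. The part of these shifts in the results was not tested. Sparc itself stood at 2977 to 3101 CPM in the Sparc-deficient co-culture and 3049 to 3092 CPM in the wild-type co-culture; the deletion is in the fibroblasts, so this does not check it. In bulk libraries, fewer cells of a type and less RNA per cell cannot be told apart.

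T23 cells transcribed few of the Wnt ligands. Of the 50 members, 31 had enough counts to be tested: 8 of 19 ligands, both secretion factors, 8 of 10 Frizzled receptors, 5 of 5 co-receptors, 3 of 4 R-spondins and 5 of 10 inhibitors. The other 19 reached at most 15 counts in any library (Wnt10b), and Fzd10, Dkk1, Dkk4 and Wnt9b had 0 counts in all 18, which allows up to 0.108 to 0.272 CPM depending on the library. The untested ligands included Wnt3a, the ligand most used to activate beta-catenin in culture, with at most 3 counts in a library, and Wnt4, with at most 3. Above 10 CPM in every library stood 15 members, and 8 of those were above 100 CPM: Lrp6, Ryk, Fzd1, Fzd2, Dkk2, Dkk3, Wnt5a and Wls.

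Per kilobase of exonic length, so that genes can be compared, the most abundant ligand in T23 cells alone was Wnt5a, the ligand best known for signalling without beta-catenin, at 22.3 ± 0.563 CPM per kb (SD, n = 3). Wnt7b followed at 18.2 ± 0.731 and Wnt9a at 5.28 ± 0.267 CPM per kb, and these 3 levels did not overlap. The 19 ligands together came to 49.0 ± 0.612 CPM per kb. The most abundant receptors stood above every ligand: Ryk was at 61.9 ± 0.553, Fzd2 at 48.3 ± 2.39 and Fzd1 at 47.2 ± 1.05 CPM per kb, the last pair within their spread. Lrp6 was at 29.5 ± 1.61 and Lrp5 at 8.13 ± 0.375 CPM per kb. The secretion carrier Wls stood at 76.0 ± 0.917 CPM per kb, and Porcn, the acyltransferase, at 0.678 ± 0.0942. Highest of all members in T23 cells alone was Dkk2, an inhibitor that binds Lrp5 and Lrp6, at 95.6 ± 2.37 CPM per kb, and Dkk3, a divergent Dkk protein, stood at 70.1 ± 2.47.

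**Figure D1:**
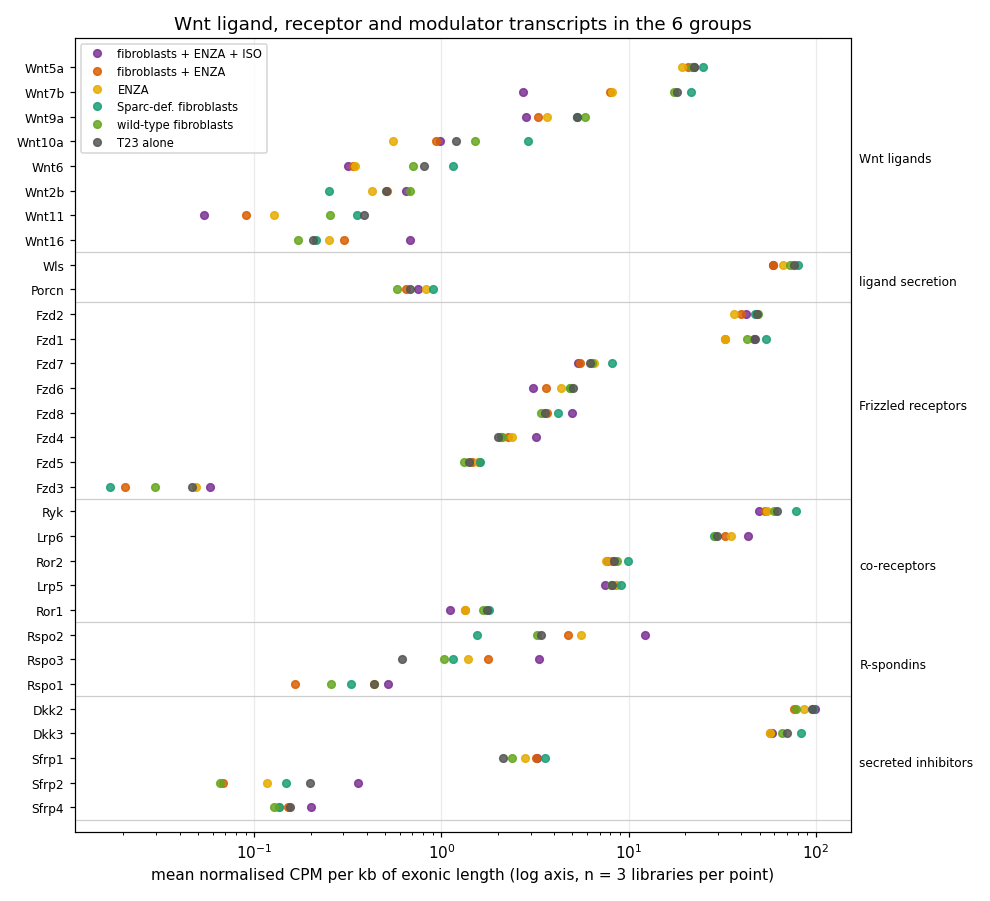
Mean normalised CPM per kilobase of exonic length (log axis) of the 31 tested members, grouped by role; each point is the mean of 3 libraries of 1 group. Ryk, Lrp6, Fzd1, Fzd2, Wls, Dkk2 and Dkk3 stand at the right with the groups close together, while Wnt7b, Wnt11, Wnt6 and Rspo2 spread widely.

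The 7 comparisons of 3 libraries against 3 gave 68 calls among the members, a call being an adjusted p under 0.05 over all 13600 genes tested in the comparison. In each of the 68 the library values of the groups did not overlap, as in 97.2% of the calls over all genes. Of the 31 tested members, 28 were called in at least 1 comparison, against 41.3% of all genes. Fzd5, Ror2 and Sfrp4 were called in none. Across all 6 groups at once, 29 of 31 members differed, against 54.3% of all genes tested; Fzd5 and Sfrp4 were the exceptions. Near the filter on low counts lie Sfrp2, Fzd3, Wnt11, Rspo1 and Sfrp4, which exceeded 0.479 CPM in 4, 8, 11, 12 and 13 libraries. A member that passed the filter only through a group where it is high had to differ, so its call is no support for a count. Sfrp2, Fzd3, Wnt11 and Rspo1 are part of the 28 and of the 29. They are also part of counts below, where they are named. Setting these counts against the shares of all genes is therefore partly fixed by the filter.

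Enzalutamide alone lowered 6 of the 8 tested Wnt ligands, 1 of them (Wnt11) near the filter, and raised 2 of the 3 tested R-spondins. Against T23 cells alone, 15 of 31 members were called, 4 higher and 11 lower (Wnt11 included), where 12% of all genes were called, 6.84% higher and 5.19% lower. The median log2 fold change was -0.146 over the members and 0.000314 over all genes. When replicate 2 of enzalutamide alone was left out, 14 of the 15 calls held, Sfrp1 was lost (adjusted p = 0.0953), and Fzd6 and Wls were gained. Between the enzalutamide and wild-type co-cultures, 15 members were called, 3 higher with enzalutamide and 12 lower (Wnt11 included), against 7.18% of all genes (3.7% higher and 3.49% lower). The median was -0.155 over the members and 0.00224 over all genes. Statements below about enzalutamide with fibroblasts or in co-culture refer to this comparison, in which the fibroblasts are also described differently. With the title numbering as a term in the fit, all 15 kept their sign and 5 of these calls held: Wnt7b, Wnt9a, Fzd1, Fzd2 and Rspo3. The 10 calls lost were Dkk3, Fzd6, Fzd7, Ror1, Rspo2, Sfrp1, Wls, Wnt10a, Wnt11 and Wnt6. With that term the comparison rests on replicate 1 of the enzalutamide co-culture, its only library in the first numbering. The fit therefore cannot tell an effect of the numbering from lost precision.

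The response to enzalutamide was also compared directly with and without fibroblasts. The fibroblasts of the enzalutamide and wild-type co-cultures are described differently, so a change of fibroblasts cannot be told apart from a difference in response. No member was called for that difference by edgeR or by DESeq2, where edgeR called 0.0221% of all genes; 2 members, Fzd7 and Wnt9a, had an unadjusted p under 0.05. Between the enzalutamide co-culture and enzalutamide alone, 1 member, Fzd7, was called, lower in the co-culture, against 2.08% of all genes (1.14% higher and 0.941% lower). Without replicate 2 of enzalutamide alone, Fzd7 was still called and Rspo1 was gained. Between the wild-type co-culture and T23 cells alone, 1 member, Dkk2, was called, lower in the co-culture, against 0.515% of all genes (0.257% higher and 0.257% lower).

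Adding isoliquiritigenin to the enzalutamide co-culture lowered Wnt7b further and raised all 3 tested R-spondins. In this comparison 13 of 31 members were called, 11 higher and 2 lower, against 26.5% of all genes (12.9% higher and 13.6% lower). Of the 11, 3 (Sfrp2, Fzd3 and Rspo1) are among the members near the filter. The median log2 fold change was 0.0974 over the members and -9.67e-05 over all genes.

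Sparc-deficient fibroblasts, compared with wild-type ones, came with 14 of 31 members called, 12 higher and 2 lower, against 11.5% of all genes (6.72% higher and 4.79% lower). The median log2 fold change was 0.262 over the members and -0.00539 over all genes. Compared with T23 cells alone, the Sparc-deficient co-culture had 9 members called, 7 higher and 2 lower, against 9.74% of all genes (6.1% higher and 3.65% lower), with medians of 0.0813 over the members and -0.0058 over all genes. The groups share libraries across these comparisons, so calls in different ones are not independent of each other.

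**Figure D2:**
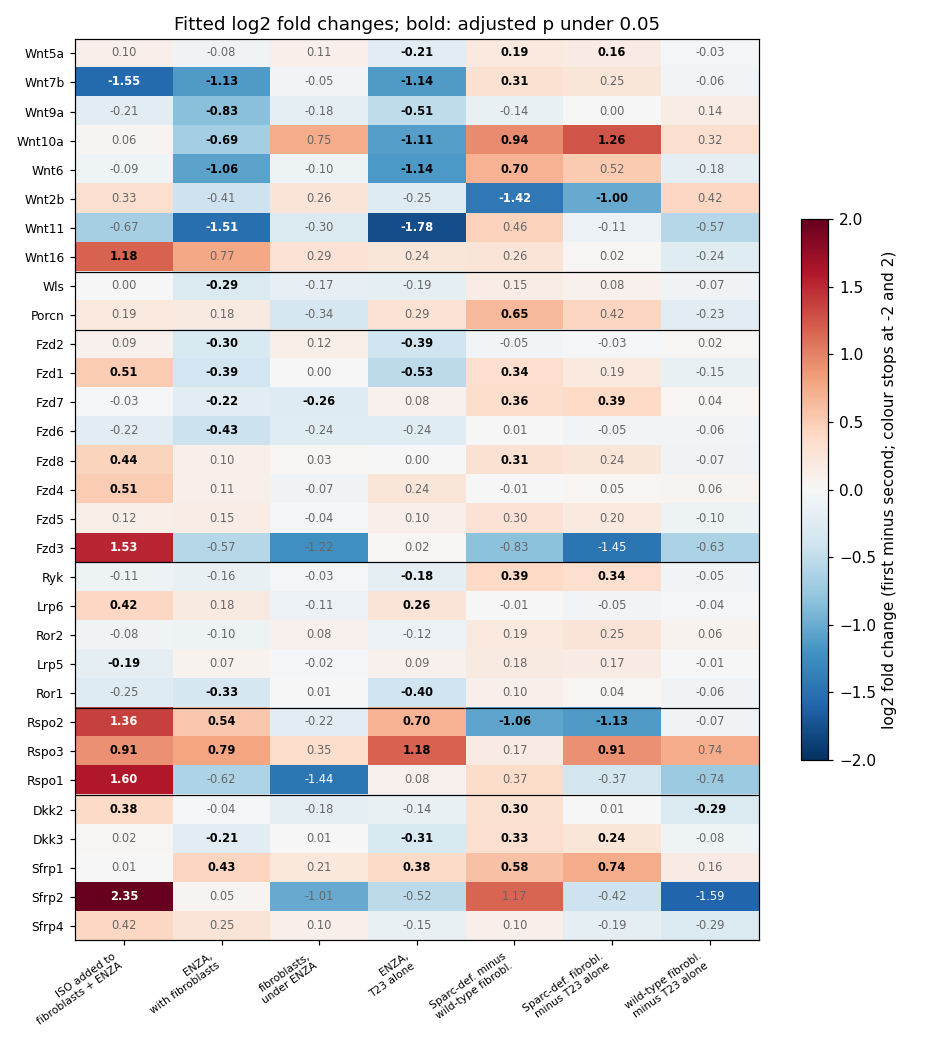
Fitted log2 fold changes of the 31 tested members (rows, by role) in the 7 comparisons (columns, first-named group minus second); bold numbers are calls. Wnt7b is -1.55 with isoliquiritigenin added and -1.13 and -1.14 with enzalutamide, and Rspo2 is positive in all 3 of these columns and -1.06 and -1.13 in the Sparc-deficient columns.

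Among the ligands, Wnt7b (ENSMUSG00000022382; chr15:85535437-85582473, minus strand, GRCm38), a ligand known for beta-catenin signalling in epithelia, had the smallest p of all members in both enzalutamide comparisons and with isoliquiritigenin. It stood at 11.2, 12.3 and 16.5 CPM in the isoliquiritigenin co-culture, 36.4, 38.0 and 42.3 CPM in the enzalutamide co-culture, and 38.1, 35.7 and 46.4 CPM with enzalutamide alone. The untreated libraries held 104, 116 and 97.7 CPM in the Sparc-deficient co-culture, 86.2, 86.5 and 83.5 CPM in the wild-type co-culture and 85.7, 88.5 and 92.8 CPM in T23 cells alone. The 9 treated libraries were thus all below the 9 untreated ones, and the 3 with isoliquiritigenin below every other. Enzalutamide alone lowered Wnt7b 2.2-fold (log2 fold change -1.14 ± 0.10 SE, adjusted p = 3.54e-08), and the enzalutamide co-culture had 2.19-fold less than the wild-type co-culture (-1.13 ± 0.10, adjusted p = 8.56e-08). Isoliquiritigenin lowered it 2.93-fold again (-1.55 ± 0.11, adjusted p = 7.68e-10). With Sparc-deficient instead of wild-type fibroblasts it was 1.24-fold higher (0.31 ± 0.09, adjusted p = 0.0314), a call lost when any 1 of 5 libraries of these groups was left out (adjusted p 0.0607 to 0.193).

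Wnt5a (chr14:28504750-28527448, plus strand) moved little by comparison. It averaged 174 ± 11.2 CPM in the isoliquiritigenin co-culture, 162 ± 5.25 in the enzalutamide co-culture, 151 ± 2.92 with enzalutamide alone, 195 ± 10.1 in the Sparc-deficient co-culture, 171 ± 0.831 in the wild-type co-culture and 175 ± 4.4 in T23 cells alone. It was lower with enzalutamide alone than in T23 cells alone (-0.21, adjusted p = 0.00737). It was higher with Sparc-deficient fibroblasts than with wild-type ones (0.19, adjusted p = 0.0144, and 0.0545 to 0.0785 without any 1 of 3 libraries) and than in T23 cells alone (0.16, adjusted p = 0.0444, and 0.0503 to 0.206 without any 1 of 12). An antisense gene, Gm2670, overlaps Wnt5a but reached at most 1.23 CPM.

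Wnt9a (chr11:59306928-59333552, plus strand), known from joint formation, stood at 9.11, 9.80 and 9.44 CPM in the isoliquiritigenin co-culture, 10.6, 9.40 and 12.7 CPM in the enzalutamide co-culture, 12.6, 10.5 and 13.3 CPM with enzalutamide alone, 18.6, 18.7 and 15.4 CPM in the Sparc-deficient co-culture, 19.4, 18.4 and 20.5 CPM in the wild-type co-culture and 16.5, 18.1 and 18.1 CPM in T23 cells alone. All treated libraries lay below all untreated ones. Enzalutamide lowered it 1.42-fold without fibroblasts (-0.51 ± 0.11, adjusted p = 0.0023) and 1.78-fold with them (-0.83 ± 0.10, adjusted p = 1.67e-05). The difference between these responses, -0.32 ± 0.15, was not called (adjusted p = 0.866).

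Wnt6 and Wnt10a are neighbours on chromosome 1, on the same strand and 6193 bases apart. Both fell with enzalutamide and rose with Sparc-deficient fibroblasts, though the rise of Wnt6 was a less stable call, as given below. Wnt10a, a ligand known from tooth and hair formation, stood at 1.16, 1.27 and 1.65 CPM with enzalutamide alone against 3.09, 2.74 and 3.06 CPM in T23 cells alone (-1.11 ± 0.21, adjusted p = 0.00111). It stood at 1.92, 2.15 and 2.86 CPM in the enzalutamide co-culture against 3.85, 3.30 and 4.05 CPM in the wild-type co-culture (-0.69 ± 0.18, adjusted p = 0.0196, and 0.0658 to 0.0931 without any 1 of 4 libraries). The Sparc-deficient co-culture had the highest values of all groups, 8.21, 6.85 and 6.31 CPM. That was 1.92-fold above the wild-type co-culture (0.94 ± 0.15, adjusted p = 0.000202) and 2.4-fold above T23 cells alone (1.26 ± 0.16, adjusted p = 8.2e-06).

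Wnt6, a ligand of epithelia, averaged 0.760 ± 0.199 CPM with enzalutamide alone and 1.77 ± 0.233 CPM in T23 cells alone (-1.14, adjusted p = 0.00365). It averaged 0.743 ± 0.0513 CPM in the enzalutamide co-culture and 1.54 ± 0.292 CPM in the wild-type co-culture (-1.06, adjusted p = 0.00886, lost without wild-type co-culture replicate 2 at 0.0735). In the Sparc-deficient co-culture it reached 2.53 ± 0.377 CPM (0.70 against the wild-type co-culture, adjusted p = 0.028, and 0.0871 to 0.129 without any 1 of 4 libraries). That call was also lost in edgeR with no filter on low counts and in DESeq2 (adjusted p 0.0604 to 0.0818).

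Wnt11, a ligand known from cell movements in gastrulation, was close to the limit of detection. It stood at 0.490, 0.907 and 0.178 CPM with enzalutamide alone against 1.38, 1.37 and 2.02 CPM in T23 cells alone (-1.78 ± 0.39, adjusted p = 0.00367), and leaving out replicate 2 of enzalutamide alone gave a log2 fold change of -2.22. It stood at 0.234, 0.450 and 0.436 CPM in the enzalutamide co-culture against 0.990, 1.22 and 0.961 CPM in the wild-type co-culture (-1.51 ± 0.41, adjusted p = 0.0252, lost without any 1 of the 6 libraries at 0.05 to 0.106). Wnt16, known from bone, rose with isoliquiritigenin to 3.48, 2.85 and 2.61 CPM, against 1.35, 1.10 and 1.5 CPM in the enzalutamide co-culture (1.18 ± 0.25, adjusted p = 0.00111). Wnt2b fell in the Sparc-deficient co-culture to 1.14, 0.887 and 1.14 CPM, against 3.49, 3.06 and 1.97 CPM in the wild-type co-culture (-1.42 ± 0.28, adjusted p = 0.00128). Against T23 cells alone, at 2.02, 2.55 and 1.83 CPM, it was 2.01-fold lower (adjusted p = 0.0273, and 0.059 to 0.134 without any 1 of 5 libraries).

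**Figure D3:**
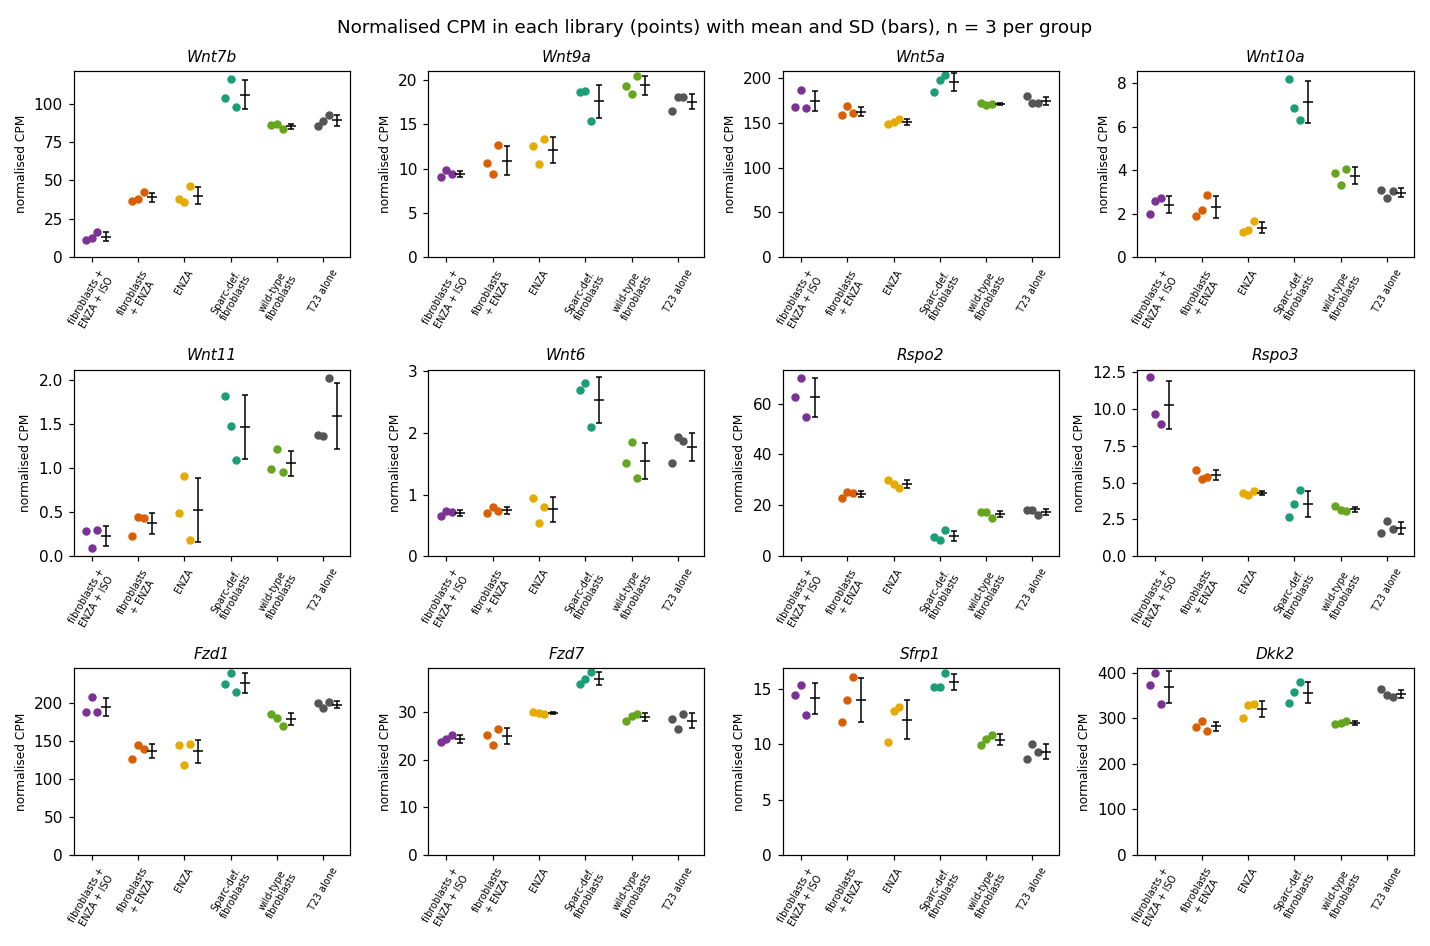
Normalised CPM of 12 members in each of the 18 libraries (points) with mean and SD per group (bars, n = 3); groups run from the isoliquiritigenin co-culture at the left to T23 cells alone at the right. Wnt7b and Wnt9a are lower in all treated libraries than in all untreated ones, and Rspo2 is highest with isoliquiritigenin and lowest with Sparc-deficient fibroblasts.

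Promoter sequences from RefSeq (GRCm38.p6) were at hand for 33 members, with 36 start sites, and are shown for the ligands lower with enzalutamide that the table holds, Wnt11, Wnt6 and Wnt9a, since these moved together. Each is the 250 bases before the start site on the plus strand, and capitals mark the motif of the beta-catenin partners Tcf and Lef, searched as CTTTGAT and its reverse complement ATCAAAG on both strands.
Wnt11, first start site, chr7:98834862-98835111: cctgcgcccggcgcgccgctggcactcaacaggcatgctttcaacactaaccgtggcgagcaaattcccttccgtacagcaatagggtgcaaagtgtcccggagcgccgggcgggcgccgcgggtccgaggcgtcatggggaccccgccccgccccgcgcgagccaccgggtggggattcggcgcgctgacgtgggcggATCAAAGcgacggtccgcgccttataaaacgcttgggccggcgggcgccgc
Wnt11, second start site, chr7:98838595-98838844: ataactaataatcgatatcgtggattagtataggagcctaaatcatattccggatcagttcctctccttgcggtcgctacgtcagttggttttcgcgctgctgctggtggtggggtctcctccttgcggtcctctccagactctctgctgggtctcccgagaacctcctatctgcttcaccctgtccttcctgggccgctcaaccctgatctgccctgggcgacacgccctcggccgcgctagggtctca
Wnt6, chr1:74771642-74771891: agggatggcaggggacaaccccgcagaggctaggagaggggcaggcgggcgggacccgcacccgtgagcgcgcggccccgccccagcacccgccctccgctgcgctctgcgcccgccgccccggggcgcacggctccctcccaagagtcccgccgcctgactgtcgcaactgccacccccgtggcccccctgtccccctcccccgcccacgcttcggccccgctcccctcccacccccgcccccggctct
Wnt9a, chr11:59306680-59306929: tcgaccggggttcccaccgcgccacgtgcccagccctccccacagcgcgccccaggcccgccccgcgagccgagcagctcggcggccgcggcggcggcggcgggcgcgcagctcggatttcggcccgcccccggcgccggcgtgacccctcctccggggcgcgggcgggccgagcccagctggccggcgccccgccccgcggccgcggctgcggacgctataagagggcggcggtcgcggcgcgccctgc
The motif was present once, at position -51 of the first Wnt11 start site. Of the 36 member start sites, 2 held it in these 250 bases (5.56%; the other was 1 of 3 for Wnt5b), and so did 3.21% of the 32851 start sites of all genes. A match is a description of letters, not a bound site.

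Summed over the 19 ligands, transcripts came to 30.7 ± 1.75 CPM per kb in the isoliquiritigenin co-culture, 34.3 ± 1.23 in the enzalutamide co-culture, 33.0 ± 1.74 with enzalutamide alone, 56.8 ± 2.52 in the Sparc-deficient co-culture, 48.7 ± 0.323 in the wild-type co-culture and 49.0 ± 0.612 in T23 cells alone. Wnt7b made up 8.87% ± 1.85 of that sum in the isoliquiritigenin co-culture, 23.1% ± 1.09 in the enzalutamide co-culture, 24.7% ± 2.11 with enzalutamide alone, 38.0% ± 1.71 in the Sparc-deficient co-culture, 35.8% ± 0.534 in the wild-type co-culture and 37.1% ± 1.03 in T23 cells alone. The share of Wnt5a was correspondingly 72.3% ± 2.24 in the isoliquiritigenin co-culture and 45.6% ± 1.60 in T23 cells alone.

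**Figure D4:**
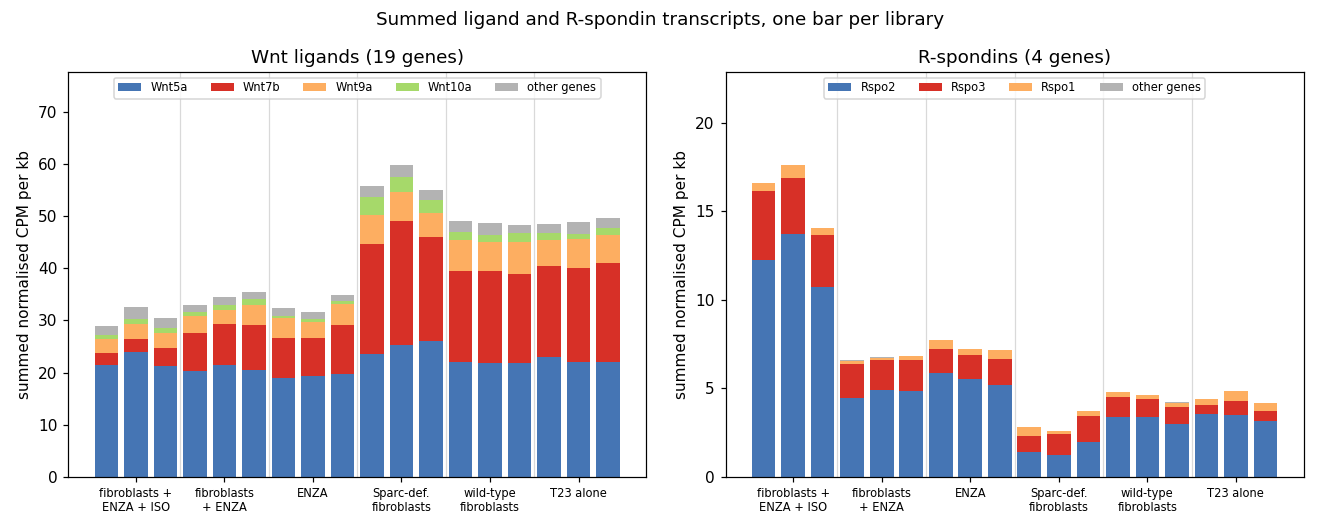
Summed normalised CPM per kilobase of the 19 ligands (left) and the 4 R-spondins (right), 1 bar per library, stacked by gene. Ligand sums are lower and R-spondin sums higher in the 9 treated libraries than in the 9 untreated ones; the Wnt7b segment is smallest with isoliquiritigenin.

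Both R-spondins above 1 CPM in every group, Rspo2 and Rspo3, rose with enzalutamide, opposite in direction to the ligands that were called. Rspo2 (ENSMUSG00000051920; chr15:43020794-43170826, minus strand) stood at 62.5, 70.2 and 54.8 CPM in the isoliquiritigenin co-culture, 22.9, 25.0 and 24.9 CPM in the enzalutamide co-culture, and 29.9, 28.3 and 26.7 CPM with enzalutamide alone. It stood at 7.34, 6.45 and 10.1 CPM in the Sparc-deficient co-culture, 17.4, 17.3 and 15.2 CPM in the wild-type co-culture, and 18.3, 18.0 and 16.0 CPM in T23 cells alone. The isoliquiritigenin libraries were above all others and the Sparc-deficient ones below all others.

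Rspo2 was 1.62-fold higher with enzalutamide alone than in T23 cells alone (0.70 ± 0.11, adjusted p = 0.000178) and 1.46-fold higher in the enzalutamide co-culture than in the wild-type co-culture (0.54 ± 0.11, adjusted p = 0.00259, but 0.16 with the title numbering as a term). Isoliquiritigenin raised it 2.57-fold over the enzalutamide co-culture (1.36 ± 0.10, adjusted p = 1.51e-09). In the Sparc-deficient co-culture it was 2.08-fold lower than in the wild-type co-culture (-1.06 ± 0.12, adjusted p = 3.1e-06) and 2.18-fold lower than in T23 cells alone (-1.13 ± 0.12, adjusted p = 1.15e-06).

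Rspo3 (chr10:29452416-29535867, minus strand) stood at 12.2, 9.70 and 9.02 CPM in the isoliquiritigenin co-culture, 5.89, 5.25 and 5.38 CPM in the enzalutamide co-culture, 4.32, 4.17 and 4.40 CPM with enzalutamide alone, 2.69, 3.55 and 4.47 CPM in the Sparc-deficient co-culture, 3.39, 3.10 and 3.08 CPM in the wild-type co-culture and 1.55, 2.36 and 1.83 CPM in T23 cells alone. T23 cells alone had the lowest values, and the values of the 3 groups that follow them overlap in part. Enzalutamide raised it 2.27-fold without fibroblasts (1.18 ± 0.19, adjusted p = 0.000239) and 1.73-fold with them (0.79 ± 0.17, adjusted p = 0.00379). Isoliquiritigenin raised it a further 1.87-fold (0.91 ± 0.14, adjusted p = 3.58e-05). It was 1.88-fold higher in the Sparc-deficient co-culture than in T23 cells alone (0.91 ± 0.19, adjusted p = 0.00318), while the wild-type co-culture, at 0.74 ± 0.20 over T23 cells alone, did not pass the threshold (adjusted p = 0.109).

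Rspo1 averaged 1.00 ± 0.327 CPM in the isoliquiritigenin co-culture and 0.322 ± 0.0691 CPM in the enzalutamide co-culture (1.60 ± 0.38, adjusted p = 0.00274). With all libraries in the reported fit, it was called in no other comparison. Rspo4 reached at most 2 counts in a library and was not tested. The R-spondin sum was 16.1 ± 1.82 CPM per kb in the isoliquiritigenin co-culture, 6.71 ± 0.121 in the enzalutamide co-culture, 7.36 ± 0.297 with enzalutamide alone, 3.05 ± 0.609 in the Sparc-deficient co-culture, 4.56 ± 0.301 in the wild-type co-culture and 4.49 ± 0.336 in T23 cells alone.

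Frizzled receptors changed by less than 1.5-fold in every call but that of Fzd3. Fzd1 stood at 188, 209 and 188 CPM in the isoliquiritigenin co-culture, 127, 145 and 139 CPM in the enzalutamide co-culture, 145, 119 and 146 CPM with enzalutamide alone, 225, 240 and 214 CPM in the Sparc-deficient co-culture, 186, 181 and 170 CPM in the wild-type co-culture and 200, 193 and 202 CPM in T23 cells alone. Enzalutamide lowered it without fibroblasts (-0.53 ± 0.07, adjusted p = 1.56e-05) and with them (-0.39 ± 0.07, adjusted p = 0.000755). It was higher with isoliquiritigenin added (0.51 ± 0.07, adjusted p = 4.57e-06) and with Sparc-deficient instead of wild-type fibroblasts (0.34 ± 0.07, adjusted p = 0.00159).

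Fzd2 likewise fell with enzalutamide, by 0.39 on the log2 scale without fibroblasts (adjusted p = 0.000564) and by 0.30 with them (adjusted p = 0.00784, and 0.0542 to 0.0636 without either of 2 libraries), but was not called with isoliquiritigenin (0.09). Fzd6, a receptor known from planar cell polarity, averaged 17.4 ± 0.93 CPM in the enzalutamide co-culture and 23.4 ± 0.327 CPM in the wild-type co-culture (-0.43, adjusted p = 0.0105, lost without enzalutamide co-culture replicate 3 at 0.0534). Fzd4 and Fzd8 were higher with isoliquiritigenin, by 0.51 and 0.44 (adjusted p = 0.000105 for both). Fzd8 was also higher with Sparc-deficient than with wild-type fibroblasts (0.31, adjusted p = 0.0107, lost without wild-type co-culture replicate 3 at 0.0609). Fzd3 averaged 0.741 ± 0.348 CPM with isoliquiritigenin and 0.261 ± 0.155 CPM in the enzalutamide co-culture (1.53 ± 0.47, adjusted p = 0.0183, and 0.11 to 0.148 without either of 2 libraries). That call was also lost with the title numbering as a term (edgeR, adjusted p = 0.108).

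Fzd7, a receptor of many progenitor cells, stood at 23.6, 24.2 and 25.2 CPM in the isoliquiritigenin co-culture, 25.2, 23.1 and 26.4 CPM in the enzalutamide co-culture, 29.9, 29.8 and 29.5 CPM with enzalutamide alone, 35.8, 36.8 and 38.3 CPM in the Sparc-deficient co-culture, 28.1, 29.1 and 29.6 CPM in the wild-type co-culture and 28.5, 26.5 and 29.5 CPM in T23 cells alone. The Sparc-deficient libraries were above all others. It was 1.28-fold higher there than in the wild-type co-culture (0.36 ± 0.06, adjusted p = 0.000573) and 1.31-fold higher than in T23 cells alone (0.39 ± 0.06, adjusted p = 0.000206). The enzalutamide co-culture was lower than enzalutamide alone (-0.26 ± 0.07, adjusted p = 0.0422, and 0.0503 to 0.249 without any 1 of 10 libraries) and lower than the wild-type co-culture (-0.22 ± 0.07, adjusted p = 0.0466, and 0.0508 to 0.244 without any 1 of 14). Fzd5 lay between 7.70 and 14.7 CPM over all libraries.

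Of the co-receptors, Lrp6 rose with enzalutamide alone and, in co-culture, when isoliquiritigenin was added. It averaged 596 ± 39 CPM in the isoliquiritigenin co-culture, 446 ± 15.9 in the enzalutamide co-culture, 482 ± 24.3 with enzalutamide alone, 390 ± 45.6 in the Sparc-deficient co-culture, 393 ± 13.8 in the wild-type co-culture and 403 ± 22 in T23 cells alone. The rise over the enzalutamide co-culture with isoliquiritigenin was 0.42 ± 0.07 (adjusted p = 7.76e-05), and that of enzalutamide alone over T23 cells alone 0.26 ± 0.07 (adjusted p = 0.0174, and 0.0794 to 0.0852 without either of 2 libraries of T23 cells alone). The log2 fold change of the enzalutamide co-culture over the wild-type co-culture was 0.18 and was not called. Lrp5 was lower with isoliquiritigenin (-0.19 ± 0.06, adjusted p = 0.0257, and 0.0851 to 0.209 without any 1 of 3 libraries).

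Ryk, a receptor that binds Wnt5a, averaged 355 ± 11 CPM in the Sparc-deficient co-culture, 271 ± 6.94 in the wild-type co-culture and 281 ± 2.51 in T23 cells alone. It was higher with Sparc-deficient fibroblasts than in the wild-type co-culture (0.39 ± 0.05, adjusted p = 2.43e-05) and than in T23 cells alone (0.34 ± 0.05, adjusted p = 0.000139). With enzalutamide alone it was lower than in T23 cells alone (-0.18, adjusted p = 0.0347, and 0.0689 to 0.119 without any 1 of 5 libraries). Ror1 fell with enzalutamide alone to 7.68 ± 0.405 CPM, against 10.1 ± 0.545 CPM in T23 cells alone (-0.40, adjusted p = 0.00675). In the enzalutamide co-culture it was at 7.67 ± 0.109 CPM, against 9.65 ± 0.525 CPM in the wild-type co-culture (-0.33, adjusted p = 0.0299, and 0.0584 to 0.121 without any 1 of 5 libraries). Ror2 ranged over 26.7 to 44.5 CPM.

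With all libraries in the reported fit, the secretion factors were called once each. Wls averaged 522 ± 27.2 CPM in the enzalutamide co-culture and 637 ± 44.8 CPM in the wild-type co-culture (-0.29, adjusted p = 0.0113, and 0.0659 to 0.0856 without either of 2 libraries). Porcn averaged 2.72 ± 0.239 CPM in the Sparc-deficient co-culture and 1.73 ± 0.0859 CPM in the wild-type co-culture (0.65 ± 0.18, adjusted p = 0.0223, and 0.0618 to 0.093 without any 1 of 4 libraries).

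Among the secreted inhibitors, Dkk3, Sfrp1 and Dkk2 were all higher with Sparc-deficient than with wild-type fibroblasts. Dkk3 stood at 277, 280 and 279 CPM in the Sparc-deficient co-culture, 221, 215 and 230 CPM in the wild-type co-culture and 234, 228 and 244 CPM in T23 cells alone. The Sparc-deficient libraries were above both, by 0.33 ± 0.05 over the wild-type co-culture (adjusted p = 4.89e-05) and 0.24 ± 0.05 over T23 cells alone (adjusted p = 0.00148). Enzalutamide lowered Dkk3 by itself (-0.31 ± 0.05, adjusted p = 0.000159) and in co-culture (-0.21 ± 0.05, adjusted p = 0.00697). The co-culture call was lost with the title numbering as a term.

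Sfrp1, which binds Wnts, stood at 14.5, 15.4 and 12.6 CPM in the isoliquiritigenin co-culture, 12.1, 14.0 and 16.0 CPM in the enzalutamide co-culture, 10.2, 13.1 and 13.4 CPM with enzalutamide alone, 15.2, 15.2 and 16.5 CPM in the Sparc-deficient co-culture, 9.95, 10.5 and 10.9 CPM in the wild-type co-culture and 8.68, 10 and 9.33 CPM in T23 cells alone. The wild-type co-culture and T23 cells alone were lowest, though the lowest library of enzalutamide alone fell within the wild-type range. In the Sparc-deficient co-culture it was 1.5-fold higher than in the wild-type co-culture (0.58 ± 0.11, adjusted p = 0.000997) and 1.67-fold higher than in T23 cells alone (0.74 ± 0.11, adjusted p = 8.24e-05). The rise with enzalutamide was 0.38 ± 0.12 without fibroblasts (adjusted p = 0.0384, and 0.0507 to 0.173 without any 1 of 5 libraries) and 0.43 ± 0.11 with them (adjusted p = 0.02, and 0.0607 to 0.136 without any 1 of 4).

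Dkk2 stood at 373, 401 and 332 CPM in the isoliquiritigenin co-culture, 281, 293 and 273 CPM in the enzalutamide co-culture, 300, 330 and 332 CPM with enzalutamide alone, 333, 358 and 379 CPM in the Sparc-deficient co-culture, 287, 289 and 295 CPM in the wild-type co-culture and 364, 351 and 348 CPM in T23 cells alone. It was lowest in the enzalutamide and wild-type co-cultures, whose values overlap. It was lower in the wild-type co-culture than in T23 cells alone (-0.29 ± 0.06, adjusted p = 0.0313), the only member call of that comparison, lost without any 1 of its 6 libraries (adjusted p 0.0693 to 0.207). It was higher in the Sparc-deficient than in the wild-type co-culture (0.30 ± 0.06, adjusted p = 0.00242) and with isoliquiritigenin than in the enzalutamide co-culture (0.38 ± 0.06, adjusted p = 5.33e-05). Sfrp2 stood at 0.610, 0.690 and 1.01 CPM with isoliquiritigenin against 0.140, 0.300 and 0 CPM in the enzalutamide co-culture, a difference at the limit of detection (2.35 ± 0.59, adjusted p = 0.00393 in edgeR; DESeq2 gave it no adjusted p). The other inhibitors, Sfrp4, Sfrp5, Dkk1, Dkk4, Dkkl1 and Wif1, were untested or never called.

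Other genes of the pathway were listed by place in the cell, 49 in all. Of 15 tested genes of the extracellular and membrane list, enzalutamide alone raised 2 and lowered 5 relative to T23 cells alone, and enzalutamide in co-culture raised 2 and lowered 3 relative to the wild-type co-culture. Isoliquiritigenin raised 2 and lowered 4 relative to the enzalutamide co-culture. Sparc-deficient fibroblasts raised 2 and lowered 2 relative to wild-type ones, and raised 2 and lowered 1 relative to T23 cells alone. Wild-type fibroblasts lowered 1, Apcdd1. Over all genes the shares called were 12%, 7.18%, 26.5%, 11.5%, 9.74% and 0.515% in the same order of comparisons.

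Lgr5, an R-spondin receptor and itself a target of the pathway, fell with enzalutamide to 2.27, 2.45 and 1.78 CPM, against 4.51, 4.15 and 4.59 CPM in T23 cells alone (-1.06, adjusted p = 0.00124). In the enzalutamide co-culture it was at 2.43, 1.45 and 1.5 CPM, against 5.00, 5.26 and 5.06 CPM in the wild-type co-culture (-1.50, adjusted p = 3.23e-05). It was highest in the Sparc-deficient co-culture, at 7.57, 11.5 and 8.68 CPM, 0.85 above the wild-type co-culture (adjusted p = 0.000782) and 1.06 above T23 cells alone (adjusted p = 8.39e-05). With isoliquiritigenin, where Rspo2 rose most, Lgr5 was at 2.58, 3.04 and 2.07 CPM, a log2 fold change of 0.50 ± 0.22 over the enzalutamide co-culture that did not pass the threshold (adjusted p = 0.0936). Apcdd1, a membrane inhibitor of the pathway, had log2 fold changes of -1.26 with enzalutamide alone over T23 cells alone (adjusted p = 2.95e-09), -0.94 with enzalutamide in co-culture (adjusted p = 7.33e-07), 0.49 with isoliquiritigenin (adjusted p = 0.000318), -0.56 in the Sparc-deficient co-culture over T23 cells alone (adjusted p = 0.000129) and -0.46 in the wild-type co-culture over T23 cells alone (adjusted p = 0.0145, and 0.0598 to 0.138 without any 1 of 4 libraries). Gpc6, a glypican of the cell surface, was higher with enzalutamide alone (0.46), with enzalutamide in co-culture (0.55, adjusted p = 0.00217, but 0.134 with the title numbering as a term) and with isoliquiritigenin (0.77). Lgr6, another R-spondin receptor, was lower with isoliquiritigenin (-0.37, adjusted p = 0.0119, lost without enzalutamide co-culture replicate 3 at 0.0899). Igfbp4, a binding protein known to inhibit the pathway, was higher in the Sparc-deficient co-culture than in the wild-type co-culture (0.36, adjusted p = 0.00026) and than in T23 cells alone (0.23, adjusted p = 0.0158, and 0.0519 to 0.0997 without any 1 of 4 libraries). Trabd2b, a membrane protease that inactivates Wnts, was lower in the Sparc-deficient than in the wild-type co-culture (-0.39, adjusted p = 0.0102, and 0.0505 to 0.0609 without either of 2 libraries).

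Of 16 tested cytoplasmic genes, enzalutamide alone raised 3 and lowered 3, enzalutamide in co-culture raised 2 and lowered 1, and isoliquiritigenin raised 4 and lowered 2. Sparc-deficient fibroblasts lowered 1 relative to wild-type ones, Dvl2 (-0.22, adjusted p = 0.0467, and 0.055 to 0.273 without any 1 of 10 libraries), and raised 1 and lowered 1 relative to T23 cells alone. The shares of all genes called, given beside the extracellular list, are the background for this list and the nuclear one. All nuclear counts, and the cytoplasmic counts in the Sparc-deficient comparisons, are near or below them. The cytoplasmic gene raised in the Sparc-deficient co-culture over T23 cells alone was Csnk1e (0.15, adjusted p = 0.0491, lost without any 1 of 14 libraries at 0.0537 to 0.153). The gene lowered was Axin2 (-0.52, adjusted p = 0.00502, lost without T23 cells alone replicate 3 at 0.0573). Axin2 stood at 12.9, 14.8 and 11.9 CPM in the Sparc-deficient co-culture and 13.3, 14.4 and 12.9 CPM in the wild-type co-culture. In T23 cells alone it stood at 17.3, 17.4 and 22.1 CPM. Values were thus about as low with wild-type fibroblasts, although the wild-type co-culture had no cytoplasmic call against T23 cells alone. Axin2, a feedback inhibitor and common readout of beta-catenin activity, fell with enzalutamide by 2.26 on the log2 scale without fibroblasts (adjusted p = 2.12e-10) and by 2.24 with them (adjusted p = 9.92e-10). Prickle2, a planar polarity protein, was higher with enzalutamide alone (0.46, adjusted p = 0.0321, and 0.0521 to 0.121 without any 1 of 5 libraries), with enzalutamide in co-culture (0.53, adjusted p = 0.0203, but 0.425 with the title numbering as a term) and with isoliquiritigenin (0.53, adjusted p = 0.00297). Its relative Prickle1 was lower with enzalutamide alone (-0.55, adjusted p = 0.000257) and with isoliquiritigenin (-0.49, adjusted p = 0.000314). Apc, a scaffold of the complex that degrades beta-catenin, was higher with enzalutamide in co-culture (0.24, adjusted p = 0.0132, but 0.0769 with the numbering term), and Dvl2, which relays the receptor signal, was higher with isoliquiritigenin (0.45, adjusted p = 2.81e-05). Of 8 tested nuclear genes, enzalutamide alone raised 1, Bcl9 (0.23, adjusted p = 0.00641), and isoliquiritigenin raised Tcf7l2 (0.30, adjusted p = 0.0039) and lowered Lef1 (-0.42, adjusted p = 0.0115, lost without enzalutamide co-culture replicate 2 at 0.0563); no other comparison called a nuclear gene.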

How the data were processed

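RNA was measured in 18 libraries, 3 in each of 6 groups taken from the sample labels. Per the labels' protocols, poly(A) RNA from total RNA went into stranded libraries (dUTP in the second strand) sequenced on the NextSeq 550 system. In the deposited files are whole-number counts per Ensembl gene, not normalised, 1 file per library. Per the submitters' processing notes, the authors worked with GRCm38 and with STAR 2.6.1d, featureCounts 2.0, cutadapt 2.9, DESeq2, FastQC 0.11.9 and bcl2fastq 2.20.0.422. Which annotation release was used, whether counting used strand, and how multiply mapped reads were handled are not given in the sources used here. Overlapping genes are therefore uncertain; among the members this bears on Wnt5b, which overlaps Fbxl14 (30.3 to 41.3 CPM) on the opposite strand, and on Wnt5a. Symbols, coordinates and exonic lengths came from GENCODE M21, which paired 55227 of 55487 identifiers; the 260 others held 0.00552% of all counts.

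Genes were filtered with filterByExpr (minimum count 10), which left 13600. After TMM scaling, a quasi-likelihood model with a mean per group was fitted to all 18 libraries with R 4.3.3, limma 3.58.1 and edgeR 4.0.16. It left 12 residual degrees of freedom, and the biological coefficient of variation was 7.03%. P-values are two-sided F tests, Benjamini-Hochberg adjusted over the 13600 genes, with calls under 0.05. CPM are counts per M of the TMM-scaled library size; means carry SD over 3 libraries and log2 fold changes carry SE. The pipeline was tested on simulated data. Library totals were 16.1 to 26.7 M counts, and a count of 0 allows up to 3 counts; these floors cover counting error only. Nothing in the labels says that replicates came from separate cultures, so p-values measure the spread between these libraries, which may be technical. Libraries with the same replicate number did not deviate together: in 0 of 15 pairs of groups were all same-number correlations above 0.1 (range -0.217 to 0.143).

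The members and lists were chosen with earlier results of these data known. By rule, each called member is named with its log2 fold change, and of each list of other pathway genes up to 3 called genes per comparison by size of change. Alternatives tried were DESeq2 1.42.0, its size factors within edgeR, no filter on low counts, only the groups compared, a replicate block, removal of ribosomal RNA genes, the title numbering as a term, and leaving out each library.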

Additional observations from a re-analysis of the deposited data

Results flagged for a closer look

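The log2 fold changes of Fzd7 with enzalutamide had opposite signs with and without fibroblasts, and only the first passed the threshold. They were -0.22 in the enzalutamide co-culture over the wild-type co-culture and 0.08 with enzalutamide alone over T23 cells alone, where the libraries overlap. The difference between these responses was -0.30 ± 0.09 (unadjusted p = 0.0043). Over all 13600 genes it was not called (edgeR, adjusted p = 0.759). All 3 enzalutamide co-culture libraries lay below the wild-type co-culture, but that call was lost under 17 alternatives.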

How the results depend on the processing

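Of 68 calls, 42 held under every alternative that gave an adjusted p and 26 were lost under at least 1; of 1698 recomputed values 1563 kept their call, 135 lost it and 0 changed direction. With isoliquiritigenin, Sfrp2 had no adjusted p in DESeq2 and Fzd3 was not tested with only its groups. The wild-type co-culture against T23 cells alone gave 2 member calls with no filter on low counts, with only its groups in the fit and with DESeq2 (Rspo3 joins Dkk2), against 1 as reported (all genes 336 against 70 with only its groups). The Sparc-deficient co-culture against T23 cells alone gave 15 with only its groups, against 9 (all genes 2188 against 1325). The enzalutamide co-culture against the wild-type co-culture gave 5 with the title numbering as a term, against 15 (all genes 214 against 977). The enzalutamide co-culture against enzalutamide alone gave 0 with that term and 0 with only its groups, against 1 (all genes 11 and 56 against 283; 9 members had an unadjusted p under 0.05 when edgeR was fitted to all groups). The cause was not tested. With the title numbering as a term, both comparisons rest on replicate 1 of the enzalutamide co-culture, so an effect of the numbering and lost precision cannot be told apart. Leaving out 1 library gave 0 to 1 calls for the wild-type co-culture against T23 cells alone, 10 to 15 for the Sparc-deficient against the wild-type co-culture, 7 to 13 for the Sparc-deficient co-culture against T23 cells alone, 12 to 16 for enzalutamide alone, 10 to 16 for enzalutamide in co-culture, 0 to 2 for the enzalutamide co-culture against enzalutamide alone, 12 to 13 for isoliquiritigenin, 0 for the difference in response and 27 to 29 across all groups. With a replicate block the counts were 1, 14, 8, 15, 15, 1, 13, 0 and 29 in the same order, and Wnt5a in the Sparc-deficient co-culture against T23 cells alone was the call lost. At this depth 19 members had too few counts to be tested.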
